A study of Mus musculus with 84 samples.

Results

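The livers of 6 db/db mice that had received rosiglitazone (RSG) at 28 µmol/kg were compared with a pool of liver RNA from untreated db/db mice. These 6 mice are the biological samples whose titles give liver, rosiglitazone and 28 µmol/kg, and they are 6 of the 84 samples of the series. All mice were males of the BKS Cg-m+/+ Leprdb/J line, which carry the db mutation of the leptin receptor and become obese and diabetic, and they arrived at 8 weeks of age. RSG was given by mouth for 18 days. RNA of each mouse and of the pool shared a pair of 2-colour Agilent microarrays covering the mouse genome, with the dyes exchanged on the second. The pool held RNA of 6 untreated db/db mice, so it counts as 1 control sample, and how untreated mice differ among themselves enters no test against it. The samples used for comparison came in groups of 6. They were liver of db/db mice given RSG at 84 or at 280 µmol/kg, liver of db/db mice given a compound named only S at 28 µmol/kg, inguinal adipose tissue (IAT) of db/db mice given RSG at 28 µmol/kg against a pool of untreated IAT, and technical repeats of liver RNA at 28 µmol/kg RSG. Livers given S at 84 or 280 µmol/kg entered the fits only for the choice of probes and the estimate of spread. IAT given RSG at 84 or 280 µmol/kg, or S at 28, 84 or 280 µmol/kg, did so in the fit of both tissues.

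RSG is a thiazolidinedione and an agonist of the nuclear receptor PPARγ, which binds DNA as a dimer with RXR and is most abundant in adipocytes, where it drives fat storage. The liver of obese mice also holds PPARγ, and its known targets there include fatty acid carriers and proteins that coat lipid droplets. A related receptor, PPARα, is abundant in hepatocytes and controls the oxidation of fatty acids in peroxisomes and mitochondria.

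On the 12 arrays a median of 57% of the probes (51.4 to 64.1%) were well above background in the treated channel and 60.3% (52.2 to 63.8%) in the pool channel, with a median signal of 1.74 times the local background. The arrays of a dye-swap pair correlated at -0.890 to -0.853 before one of them was turned. Each mouse correlated with the mean of the other mice at 0.809 to 0.889. The SD of the log2 ratio had a median of 0.135 over the mice and of 0.0729 over the technical repeats. Mice 1 and 2, 3 and 4, and 5 and 6 were scanned on 3 different days and lay on 3 slides, which held no other group. The labels do not say which mouse the technical repeats came from.

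Of 26026 sequences (probes) tested, 6447 were called higher than the pool (24.8%) and 8776 lower (33.7%), together 58.5%, at an adjusted p under 0.05 (limma, Benjamini-Hochberg). At an unadjusted p under 0.05 it was 62.4%. With the brightest probe taken for each gene, 4129 of 15391 genes were higher (26.8%) and 5256 lower (34.1%), together 61.0%. The median log2 ratio of all genes was -0.03. In 8206 genes (53.3%) all mice lay on the same side of the pool. The changes were mostly small: 352 called genes were higher and 252 lower by at least 1 on the log2 scale, and 79 and 30 by at least 2. Since so many genes were called, the counts of each gene list below are to be read against these shares. Of 5520 genes with several probes tested, 367 had probes called in both directions. In these bulk samples, fewer cells of a type and less RNA per cell cannot be told apart.

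Cfd, the adipocyte protease adipsin, had the highest ratios, with log2 ratios of 6.47 to 6.74 over the mice (median 6.60), a mean of 6.59 ± 0.10 (SD, n = 6 mice, adjusted p = 9.4e-24) and a 96.5-fold difference from the pool. Elovl7, an elongase of long-chain fatty acids, ran from 5.03 to 5.65 (median 5.25, adjusted p = 5.1e-23). Both genes were therefore far above the pool in each mouse, and no mouse stood near it. Nat8l, which makes N-acetylaspartate, ran from 4.84 to 5.61, but its pool channel was above background on only 2 of 12 arrays. Cidec and Cidea, which enlarge lipid droplets, had medians of 4.27 (3.97 to 4.69) and 4.14 (3.8 to 4.40). Fabp4, the fatty acid carrier of adipocytes, ran from 3.18 to 3.96 (median 3.41), and Acot5, a peroxisomal thioesterase, from 3.09 to 4.03 (median 3.51). The other genes among the 15 highest measured in both channels were Sdcbp2 (mean 4.87), the orphan receptor Gprc5b (4.23), the sodium, calcium and potassium exchanger Slc24a3 (4.08), Duoxa1, a maturation factor of a dual oxidase (3.89), 5330417C22Rik (3.46), Ifi27l2b (3.44), 4930528G09Rik and Elapor1 (3.15).

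Several genes were measured in the treated mice and never above background in the pool, and for these only a lower bound holds. Lrrc39 was at least 6.42-fold higher, Gpnmb at least 4.66-fold, Tex19.1 at least 3.81-fold, Ankrd22 at least 2.91-fold and Fabp5 at least 2.79-fold. There were 37 such genes among those called higher. In the other direction, 49 genes called lower were never above background in the treated mice.

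**Figure D1:**
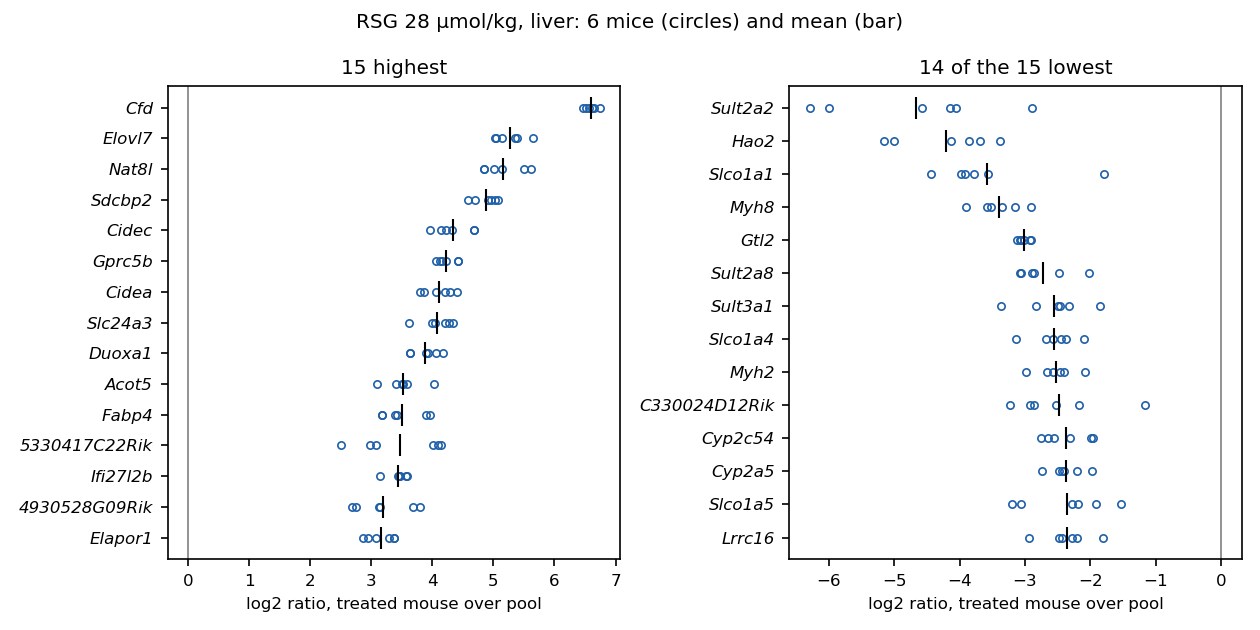
Log2 ratio of treated mouse over pool for the 15 highest genes and 14 of the 15 lowest genes measured in both channels, called, and on the same side of the pool in every mouse. Each circle is 1 of 6 mice and the bar is their mean. Cfd had the highest ratios, with the mice between 6.47 and 6.74, and Sult2a2 the lowest, with the mice between -6.29 and -2.89.

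Of 16 lipid droplet proteins, 13 rose and 1 fell, with a median log2 ratio of 0.91. Plin4, a droplet coat protein, had ratios of 2.56 to 3.92 (median 3.14, adjusted p = 7.6e-13), and Fitm1, which partitions triglyceride into droplets, of 0.69 to 1.16 (median 1.08, adjusted p = 3.2e-13). The member that fell was Cideb, the family member typical of hepatocytes, by 0.22 ± 0.06 on the log2 scale. Cidea and Cidec were thus higher than the pool and Cideb lower, and agreement over the mice was a condition for naming them.

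Adipocyte markers did not move as one group. Of 14 markers, 9 were tested, 6 were higher and 2 lower, and Lep, Acvr1c, Adrb3, Aoc3 and Trarg1 were above background in neither channel on any array. The median log2 ratio of the tested markers was 0.34. The summed signal of the list was 7.79 to 11.8 times that of the pool over the mice, a linear sum in which the brightest genes weigh most. Retn, the hormone resistin, rose by 1.87 ± 0.36 (1.41 to 2.44, adjusted p = 2.4e-10), beside Cfd, Fabp4 and Plin4. Slc2a4, the insulin-regulated glucose transporter, was lower by 1.10 ± 0.40 at -1.70 to -0.69 over the mice (adjusted p = 5.2e-05). Adipoq, the hormone adiponectin, fell by 1.09 ± 0.78 (adjusted p = 0.0012), with 1 mouse above the pool, and its adjusted p was 0.18 with scan day as a block. Plin1, the perilipin of adipocytes, had a mean of -0.16 (adjusted p = 0.40). Adipoq was above background on only 4 of 12 treated arrays and 11 pool arrays, and Plin1 on 3 and 6, so their ratios rest on dim channels. These 2 genes fall outside the naming rule and were chosen after their values were seen. Pparg itself rose by 0.34 ± 0.15 (0.15 to 0.54, adjusted p = 4.1e-06).

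Genes of fatty acid uptake and activation also moved up, with 11 of 15 higher and 2 lower. Their median was 0.83, or 0.55 after normexp and loess. Lpl, which frees fatty acids from lipoproteins, ran from 1.47 to 2.51 (median 2.14), Acsl1, which activates fatty acids with coenzyme A, from 1.13 to 1.52 (median 1.21) and the fatty acid translocase Cd36 from 0.66 to 1.01 (median 0.83). Fabp2, the intestinal form of the carriers, ran from 0.16 to 0.90 (median 0.51). Slc27a5, the bile acid and fatty acid ligase of hepatocytes, was lower in every mouse, at -0.79 to -0.66 (adjusted p = 3.3e-10).

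Fatty acid synthesis had 15 of 18 genes higher and none lower, with a median of 0.96. Scd1, the desaturase that makes oleic acid, had ratios of 2.29 to 3.01 (median 2.57, adjusted p = 6.5e-15). Elovl3, an elongase, ran from 2.11 to 2.54 (median 2.35, adjusted p = 1.4e-16), and Me1, the malic enzyme that supplies NADPH, from 2.08 to 2.81 (median 2.37). The enzymes that carry out synthesis itself varied more between mice: Fasn ran from 1.55 to 2.69 (median 1.93), Acly from 0.57 to 1.88 (1.04) and Acaca from 0.37 to 1.48 (0.80). Acacb, the carboxylase form at mitochondria, ran from 1.01 to 1.52 (1.26) and Elovl5 from 1.19 to 1.59 (1.28). The median of the list was 1.48 in mouse 4 and 1.40 in mouse 6, against 0.64 to 0.89 in the other mice. Genes of the pentose phosphate pathway, which supplies NADPH, followed, with 6 of 8 higher, none lower and a median of 0.80. Its first enzyme G6pdx ran from 0.99 to 2.08 (median 1.48), Pgd from 0.86 to 1.48 (1.12), Taldo1 from 1.03 to 1.31 (1.13) and Tkt from 0.63 to 1.01 (0.85).

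Triglyceride synthesis had 11 of 18 genes higher and 2 lower, but its median was only 0.18. Gpd1, which makes glycerol 3-phosphate, ran from 1.44 to 1.87 (median 1.59) and Mogat1, a monoacylglycerol acyltransferase, from 1.27 to 1.90 (1.5). Agpat2 ran from 0.86 to 1.25 (1.03), Dgat1 from 0.35 to 0.87 (0.57) and Gpat4 from 0.21 to 0.68 (0.36). The glycerol channel Aqp9 was lower at -0.38 to -0.25. Lipolysis genes were higher in 6 of 7 cases, with a median of 0.65. Pnpla2, the first lipase of triglyceride, and its activator Abhd5 ran from 0.36 to 1.07 (median 0.70) and from 0.51 to 1.08 (0.86). Mgll, the monoglyceride lipase, ran from 0.50 to 0.81, the lysosomal lipase Lipa from 0.43 to 1.01 and the esterase Aadac from 0.53 to 0.74. Lipe, the hormone-sensitive lipase, lay between -0.03 and 0.59 (mean 0.25, adjusted p = 0.017), and its adjusted p was 0.24 with scan day as a block.

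Genes of fatty acid oxidation were mostly higher, as were those of synthesis. Of 23 genes of peroxisomal and omega oxidation, 17 were higher and 4 lower, with a median of 0.47. The peroxisomal thiolases Acaa1a and Acaa1b had means of 1.99 ± 0.12 and 1.98 ± 0.12 in nearly the same values per mouse. Their sequences are almost identical, so these probes may not tell them apart. Ehhadh, the bifunctional enzyme of peroxisomal oxidation, ran from 1.13 to 1.40 (median 1.22, adjusted p = 4e-16). Pecr, a peroxisomal reductase of enoyl-CoA, was lower in every mouse, at -0.86 to -0.53. Of the acyl-CoA thioesterases, 6 of 11 were higher and none lower, among them Acot2 (0.81 to 1.87), Acot13 (0.62 to 1.11) and Acot9 (0.56 to 1.00).

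In mitochondria the ratios were smaller and close together over the mice. Beta-oxidation had 13 of 18 genes higher and 1 lower, with a median of 0.24, and Acadm, the medium-chain dehydrogenase, ran from 0.83 to 1.09 (median 0.95). Hadhb ran from 0.49 to 0.71, Eci1 from 0.42 to 0.64 and Hadh from 0.38 to 0.54. The citrate cycle and pyruvate dehydrogenase had 20 of 24 genes higher and 1 lower (median 0.28), and oxidative phosphorylation 35 of 42 higher and 1 lower (median 0.18). Cycs, cytochrome c, ran from 0.62 to 0.81 (median 0.79), the complex I subunits Ndufa10 from 0.48 to 0.55 and Ndufs7 from 0.41 to 0.53, and the complex III subunit Uqcrc2 from 0.25 to 0.44. Suclg1 ran from 0.49 to 0.64, Dlat from 0.75 to 1.14, Pdha1 from 0.39 to 0.63 and Dld from 0.32 to 0.39. The members that went the other way were Ndufb5 in the respiratory chain, lower by 0.07 ± 0.07, and Fh1, fumarase, in the citrate cycle, lower by 0.11 ± 0.07, calls that were each lost under 8 of the other settings tried.

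Pdk4, the kinase that inhibits pyruvate dehydrogenase, had ratios of 1.14 to 2.39 (median 1.67, adjusted p = 9e-07). Ketone body synthesis had 4 of 6 genes higher and none lower, with a median of 0.45 and of -0.08 in mouse 1. Without mouse 3, and also with scan day as a block, 2 were higher and 1 lower. The carrier Slc16a6, which exports ketone bodies, ran from 0.86 to 1.42 (median 1.13). Among mitochondrial isoforms of fat and muscle and uncoupling proteins, 3 of 8 were higher and 4 lower (median -0.14). Cox7a1 rose by 1.25 ± 0.28 and Ucp2 by 0.96 ± 0.29, while Cox8b was lower at -1.74 to -0.46 and the coactivator Ppargc1a at -1.0 to -0.44.

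Genes of glucose release went down in part. Of 8 genes of gluconeogenesis and glucose release, 4 were lower and 2 higher, with a median of -0.21. Slc37a4, which carries glucose 6-phosphate into the endoplasmic reticulum, ran from -1.27 to -0.81 (median -1.04, adjusted p = 4.7e-13), and G6pc, the phosphatase that frees glucose there, from -0.96 to -0.51 (-0.66). Fbp1 ran from -0.67 to -0.25 and the glucose transporter Slc2a2 from -0.65 to -0.35. The mitochondrial enzymes went the other way: Pcx, pyruvate carboxylase, ran from 0.69 to 0.93 (median 0.80) and Pck2 from 0.32 to 0.57 (0.52). In glycolysis and glycogen metabolism 12 of 31 genes were higher and 7 lower. Hk2, the hexokinase of fat and muscle, had ratios of 1.83 to 2.29 (median 2.22, adjusted p = 1.9e-18), and Aldoa of 0.55 to 0.71. Gckr, the glucokinase regulator, ran from -1.0 to -0.54 and Pfkfb2 from -0.80 to -0.52. Pklr, the liver pyruvate kinase, had a mean of -0.29 (adjusted p = 0.11). Gapdh had a mean of 0.13 (adjusted p = 0.24), read from a probe that the array annotation places on chromosome 1 and that may share sequence with near-identical copies of the gene.

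Nearly all genes of amino acid breakdown were lower: 30 of 31 genes of the urea cycle and amino acid breakdown fell and 1 rose, with a median of -0.83. The list median was -0.92 to -0.55 over the mice. Asl, which cleaves argininosuccinate, ran from -1.16 to -0.97 (median -0.99, adjusted p = 7.3e-15). Mat1a, which makes S-adenosylmethionine, ran from -1.29 to -0.83 (-1.13), Gnmt, which uses it up, from -1.44 to -1.12 (-1.3), and Cbs, which passes homocysteine on to cysteine, from -0.99 to -0.63 (-0.79). Cps1, which begins the urea cycle, ran from -1.69 to -1.16 (-1.43). The member that rose was Glul, glutamine synthetase, at 0.13 to 0.54 (median 0.43, adjusted p = 2e-05). Branched-chain amino acid breakdown did not follow, with 5 of 16 genes higher and 4 lower (median 0.04). There Bckdhb (0.38 to 0.48), Bckdk (0.28 to 0.65) and Hibch (0.28 to 0.39) were higher and Pccb (-0.40 to -0.21) lower.

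**Figure D2:**
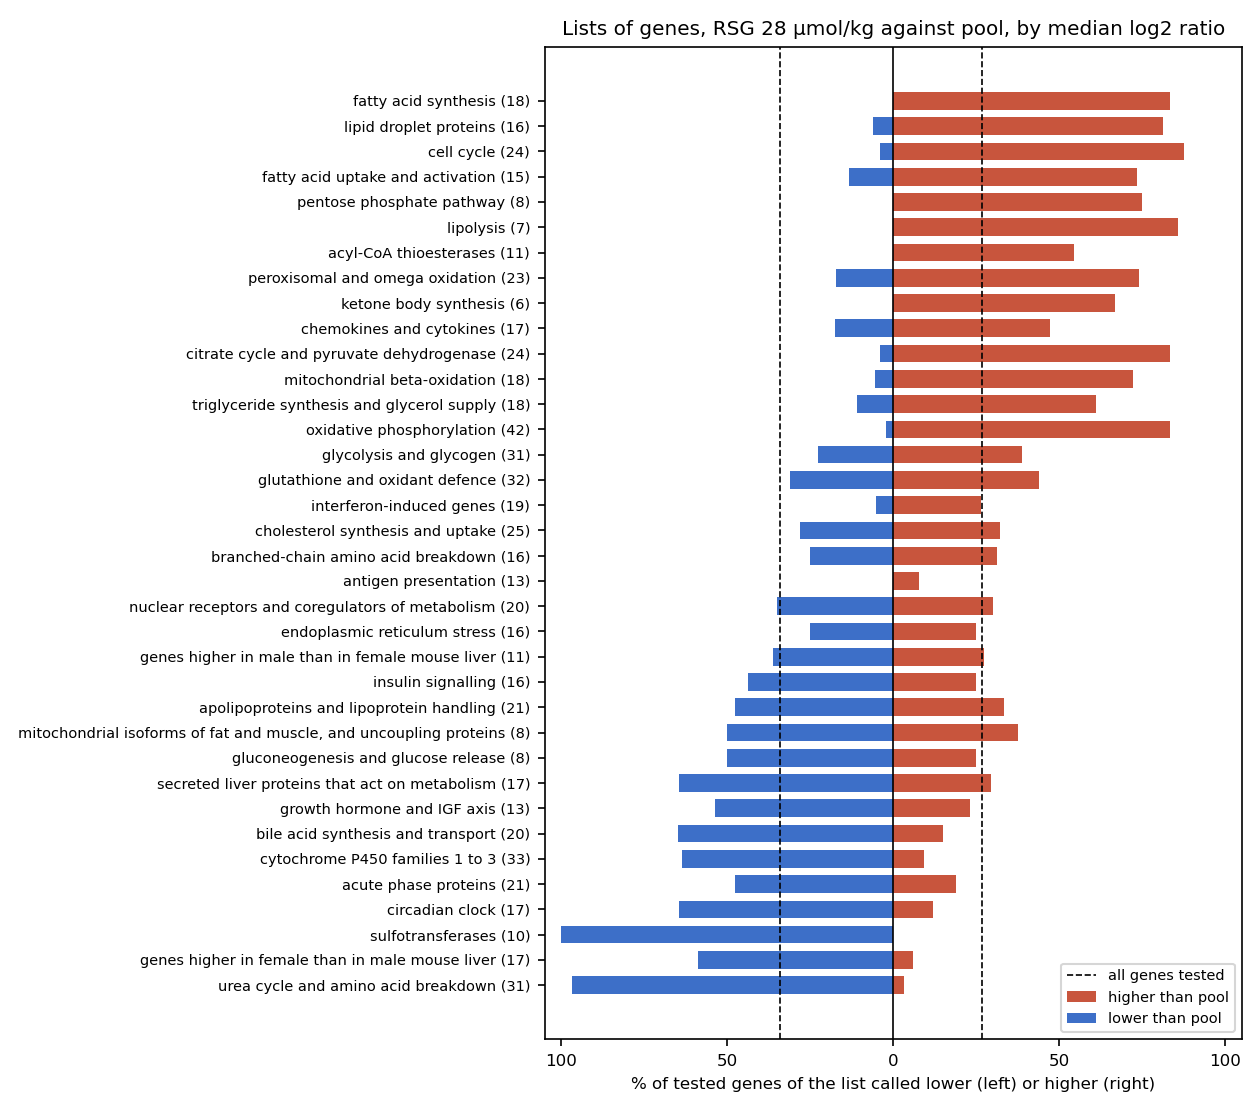
Share of the tested genes of each pathway list called lower (blue, left) or higher (red, right) at 28 µmol/kg RSG, ordered by median log2 ratio, with the number tested in parentheses. The dashed lines give the shares of all genes, 34.1% lower and 26.8% higher. Fatty acid synthesis has the highest median, 0.96, and the urea cycle and amino acid breakdown and the genes higher in female mouse liver share the lowest, -0.83.

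Sulfotransferases conjugate drugs and steroids. All 10 sulfotransferases tested were lower, with a median of -0.72, and 8 of 10 were called with scan day as a block. Sult2a2 had ratios of -6.29 to -2.89 (median -4.36, adjusted p = 1e-08) and Sult2a8 of -3.08 to -2.02 (-2.88). The Sult2a genes are near copies of one another, so their probes may not separate them. Sult3a1 ran from -3.37 to -1.85, Sult1d1 from -1.37 to -0.98 and Sult1b1 from -1.31 to -0.74. Of 33 cytochromes P450 of families 1 to 3, 21 were lower and 3 higher, with a median of -0.43. Cyp2c54 had a mean of -2.37, Cyp2c37 of -2.05, Cyp2c29 of -1.72 and Cyp2c39 of -1.60, and each was below the pool in every mouse. Cyp2c55 went against its family, at 1.47 to 2.19 (median 1.66, adjusted p = 5.5e-11). Cyp2a4 and Cyp2a5, another pair of near copies, had means of -2.05 and -2.37.

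Among genes of bile acid synthesis and transport, 13 of 20 were lower and 3 higher, with a median of -0.30. Slco1a4, an organic anion carrier of the basal membrane, ran from -3.14 to -2.10 (median -2.51, adjusted p = 6e-16), Akr1d1, the bile acid reductase, from -2.05 to -1.54 (-1.76) and Slc10a1, the main uptake carrier of bile acids, from -1.44 to -0.78 (-1.13). The carrier Slco1a1 ran from -4.44 to -1.79 (-3.85), with the treated channel above background on 3 of 12 arrays. Its neighbour Slco1a5, also among the 15 lowest genes, ran from -3.20 to -1.53. Abcc3, which exports bile acid conjugates to the blood, went up, at 0.51 to 0.86 (median 0.76, adjusted p = 5.7e-12).

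Several of these genes differ between male and female liver. Of 17 genes known as higher in female mouse liver, 10 were lower in these males and 1 higher, with a median of -0.83. With scan day as a block 7 were lower, and the median was -0.53. It was -0.29 after another background correction (normexp and loess, 9 lower), and -0.25 over the 14 genes above background on all arrays. Hao2, a peroxisomal oxidase of hydroxy acids, ran from -5.15 to -3.38 (median -4.0, adjusted p = 2.8e-11) and was above background on 8 of 12 treated arrays. Cyp2c40 ran from -1.04 to -0.71. This list shares 7 genes with the P450 list. Of 11 genes known as higher in males, 4 were lower and 3 higher (median -0.06): Slco1a1, Cyp7b1 (-1.35 to -0.38) and Cyp2d9 (-0.50 to -0.34) fell and Elovl3 rose. In the growth hormone and IGF axis, which sets much of this sex difference, 7 of 13 genes were lower and 3 higher (median -0.28). Igfbp4 ran from -1.10 to -0.86, Igfals, which carries IGF1 in blood, from -1.10 to -0.70, and the growth hormone receptor Ghr from -0.42 to -0.18. The signal transducers Stat5b and Stat5a moved apart, with means of -0.41 ± 0.04 and 0.36 ± 0.08.

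Hepatocyte markers were lower as a group: of 16 tested, 10 fell and 1 rose, with a median of -0.47, and their summed signal was 0.635 to 0.750 times that of the pool over the mice. Ahsg, the fetuin A of plasma, ran from -1.38 to -0.74 (median -1.07), Apoh from -0.91 to -0.71 (-0.79) and the hepatocyte transcription factor Hnf4a from -0.67 to -0.48 (-0.56). Apoa1, the main protein of HDL, rose, at 0.54 to 1.15 (0.87, adjusted p = 5e-08). The part of this marker shift in the falls of other liver genes was not tested. Of 17 secreted liver proteins that act on metabolism, 11 were lower and 5 higher (median -0.27), among them Fetub (-1.12 to -0.87) and Lect2 (-0.88 to -0.66). Acute phase proteins had 10 of 21 genes lower and 4 higher (median -0.46). The median was -0.21 without mouse 4, -0.74 without mouse 5, -0.25 without mouse 6 and -0.18 with scan day as a block. Fgb, a fibrinogen chain, ran from -1.20 to -0.82, Fga from -1.17 to -0.70 and Crp from -1.01 to -0.40, while the pentraxin Apcs ran from 0.72 to 0.94 (adjusted p = 1.2e-10).

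Apolipoproteins and lipoprotein handling had 10 of 21 genes lower and 7 higher, with a median of -0.13. Pltp, the phospholipid transfer protein, rose by 1.86 ± 0.20 (1.59 to 2.07, adjusted p = 3.1e-18) and the cholesterol exporter Abca1 by 0.44 ± 0.06. The hepatic lipase Lipc (-1.19 to -0.71) and Apoc3 (-0.61 to -0.34) fell. Genes of cholesterol synthesis and uptake were split, with 8 of 25 higher and 7 lower (median 0.05). Srebf2, the transcription factor of that pathway, ran from -0.67 to -0.32, Msmo1 from -1.44 to -0.36 and Mvk from -0.70 to -0.15, and Insig2, which holds the factor back, from 0.66 to 1.16.

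Glutathione and oxidant defence genes were split as well, with 14 of 32 higher and 10 lower (median 0.07). Gpx4, which reduces lipid peroxides, rose by 1.09 ± 0.13 (0.93 to 1.21, adjusted p = 3e-15) and Gclc, the first enzyme of glutathione synthesis, by 0.82 ± 0.23. Prdx1 rose by 0.36 ± 0.08 and Prdx6 was lower by 0.51 ± 0.07. Of 16 genes of endoplasmic reticulum stress, 4 were higher and 4 lower (median -0.03), with Asns at 0.83 to 1.52, Herpud1 at -1.36 to -0.91, Pdia4 at -0.58 to -0.19 and Hyou1 at -0.96 to -0.20. In insulin signalling 7 of 16 genes were lower and 4 higher (median -0.07). Foxo1 (-0.61 to -0.42), Grb14 (-0.58 to -0.27) and Akt1 (-0.36 to -0.23) fell. Nuclear receptors and coregulators had 6 of 20 genes higher and 7 lower (median -0.03), with Rxra, the partner of the PPARs, at -0.69 to -0.45, Ncoa2 at -0.48 to -0.31 and Esrra at -0.42 to -0.22.

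The circadian clock is a loop in which Clock and its partner switch on the Per genes and the output factors of the PAR bZIP family. Of 17 clock genes, 11 were lower and 2 higher, with a median of -0.50, or of -0.32 after normexp and loess. Per2 ran from -1.3 to -0.50 (median -1.10, adjusted p = 3.1e-08), Per3 from -0.93 to -0.49 (-0.72), Ciart, a repressor of the loop, from -1.28 to -0.41 (-0.98) and the output factor Tef from -0.98 to -0.64 (-0.82). Clock lay above the pool in every mouse, at 0.05 to 0.39 (median 0.21, adjusted p = 0.0017), and its adjusted p was 0.16 with scan day as a block.

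The promoters of the reference table (RefSeq, GRCm38.p6, from 250 bases before to 50 after each start site) were searched on both strands for the direct repeat that PPAR and RXR dimers are known to bind. Its strict spelling is AGGTCANAGGTCA and its looser one AGGNCANAGGNCA, which includes the strict one. Of 32851 promoters, 13 (0.0396%) held the strict spelling and 125 (0.381%) the looser one. Among genes with a promoter, the looser spelling was held by 14 of 3055 called higher (0.458%), 13 of 3769 called lower (0.345%) and 16 of 4276 not called (0.374%). Clock was the only gene named by rule that was called higher in every mouse and held a match. Its promoter, chr5:76303453-76303752 on the minus strand, is shown with the match in capitals, at positions -126 to -114 from the start site and read on the opposite strand as AGGTCAGAGGCCA.
Clock: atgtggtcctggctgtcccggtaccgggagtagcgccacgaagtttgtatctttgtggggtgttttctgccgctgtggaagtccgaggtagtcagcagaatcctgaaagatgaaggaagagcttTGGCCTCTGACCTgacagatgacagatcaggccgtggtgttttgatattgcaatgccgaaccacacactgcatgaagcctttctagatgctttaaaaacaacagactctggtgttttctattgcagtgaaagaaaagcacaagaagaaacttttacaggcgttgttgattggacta
A match in these letters is a description of the sequence and not a bound site. The promoters of Cfd, Elovl7 and Cidec held neither spelling in this window.

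Genes of the cell cycle were higher in 21 of 24 cases and lower in 1, with a median of 0.87. The list median was -0.14 in mouse 3 and 0.84 to 1.27 in the other mice. Mcm2 and Mcm4, parts of the helicase that opens DNA for replication, ran from 0.91 to 1.78 (median 1.44) and from 0.27 to 1.09 (0.95), with mouse 3 lowest for Mcm4. Cdkn1a, the inhibitor p21, ran from 1.17 to 2.29 (median 1.73, adjusted p = 5.6e-07). Tk1, a thymidine kinase of S phase, went against the others, at -1.12 to -0.79 (adjusted p = 1.8e-10). The number called higher was 17 without mouse 4 and 21 without mouse 3, and the median was 0.48 after normexp and loess. The list median was 0.54 at 84 and 0.28 at 280 µmol/kg RSG and 0.87 at 28 µmol/kg of the S compound.

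Markers of other liver cells moved less. Stellate cell and matrix markers had 8 of 14 higher and 2 lower (median 0.30), with Col1a2 at 0.88 to 1.40, the basement membrane collagen Col4a1 at 0.92 to 1.43, the retinol enzyme Lrat at 0.85 to 1.40, and the protease inhibitor Timp1 at -0.59 to -0.17. Endothelial markers had 7 of 10 higher and none lower (median 0.18), and 3 higher with scan day as a block, with Lyve1 at 0.09 to 0.69, Kdr at 0.14 to 0.45, Vwf at 0.10 to 0.52 and Clec4g at 0.22 to 0.43. Bile duct markers had 4 of 8 higher and 1 lower (median 0.21), with Krt23 at 0.76 to 2.14, Sox9 at 0.28 to 1.02 and Spp1 at 0.41 to 1.14. Their summed signal was 1.43 to 2.14 times that of the pool.

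Macrophage markers had 7 of 17 higher and 2 lower (median 0.27), with a summed signal of 0.995 to 1.71 times that of the pool. With scan day as a block 2 were higher and 2 lower, and 4 were higher without mouse 2 or without mouse 5. Gpnmb, a protein of lipid-laden macrophages, is the gene given above by its bound, since its pool channel was not above background. Marco, a scavenger receptor of Kupffer cells, went down, at -2.05 to -0.43 (adjusted p = 0.00072), and Cd68 and Cd5l had means of 0.42 and 0.48. Chemokines and cytokines had 8 of 17 genes higher and 3 lower (median 0.33). Among the called genes with 1 sign in all mice, those with the smallest p were mainly lower: Cxcl12 at -1.09 to -0.62, Cxcl13 at -2.97 to -1.52 and Il18 at -1.04 to -0.37. Cxcl14 was higher at 0.48 to 1.27. Of these 17 genes 4 were called higher with scan day as a block, and the median was 0.05 after normexp and loess.

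Lymphocyte markers had 4 of 10 higher and 1 lower (median 0.00). Among the called markers with 1 sign in all mice, those with the smallest p were Ms4a1 (mean 1.07), Cd79a (0.48), Cd79b (0.52) and Ighm (0.50). All of them are genes of B cells. Ms4a1 and Cd79a were above background on 9 and 5 of the 12 treated arrays. Of the neutrophil markers 3 were tested and none called by limma, and of the erythroid markers 4 were tested, with 1 higher and 1 lower (median 0.48). Of 5 exocrine pancreas markers tested, 1 was higher and 2 lower (median -0.10). Cela3b ran from 1.3 to 2.13 and the amylase Amy2a5 from -0.97 to -0.35.

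Skeletal muscle genes had the lowest median of the lists. Of 15 markers tested, 13 were lower and none higher, with a median of -1.31 and list medians of -1.53 to -1.23 over the mice. Myh8 and Myh2, myosins of muscle fibres, had means of -3.40 and -2.53, and Myh8 was above background on 2 of 12 treated arrays. Acta1, the actin of muscle, ran from -2.58 to -1.65 (median -2.13), and Myh4 from -1.49 to -0.42. For Myh1, Mb, Myl1 and Ckmt2, measured in the pool only, the bounds were at least 5.57-, 3.73-, 2.08- and 1.6-fold lower. Ckm, Pvalb, Casq1, Actn3 and Mybpc2 were above background on no array, and the summed signal of the list was 0.582 to 0.626 times that of the pool. The median was -0.38 after normexp and loess, with 13 lower, and -0.59 over the 7 genes above background on all arrays. In the other liver groups the list median was also below the pool. It was -1.29 and -1.05 for RSG at 84 and 280 µmol/kg and -1.03 for the S compound at 28 µmol/kg. In IAT at 28 µmol/kg RSG it was -1.07, against the separate IAT pool. The liver groups share their pool. With a single pool for each tissue, a change in the treated mice and a high level in the pool cannot be told apart.

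The imprinted noncoding RNAs Gtl2, Rian and Mirg lie in a cluster on chromosome 12. Gtl2 had ratios of -3.12 to -2.91 (mean -3.02 ± 0.08) at a probe at chr12:110019275-110019334 (mm8). Rian, whose probe lies at chr12:110108401-110108460, was at least 5.68-fold lower, and Mirg, at chr12:110189133-110189192, at least 1.53-fold lower, both being above background in the pool only. The means of Gtl2 at RSG 84 and 280 µmol/kg and at S 28 µmol/kg were -3.05, -2.96 and -2.86, against the same pool. The narrow spread of these values over the mice says nothing of the untreated mice, which were measured only as the pool.

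The mice differed most in GTPases that interferon γ induces. Among 12283 genes well above background in both channels on all 12 arrays, the median SD was 0.103 over the mice and 0.048 over the technical repeats, and 85.2% of genes varied more over the mice. Only 27 of them had an SD of 1 or more. The largest SD was that of Igtp, a GTPase that acts against pathogens inside cells. Its ratios were -2.33, 1.91, -1.06, -2.55, 1.97 and -3.07 in mice 1 to 6. Gbp6 had ratios of -0.95, 2.54, -0.61, -1.09, 2.77 and -1.95, and Iigp1 of -1.38, 1.73, -1.34, -1.96, 2.38 and -2.0. Tgtp1, Gbp7 and Irgm2, of the same families of GTPases, had SDs of 1.78, 1.71 and 1.58. All 6 of these genes lay above the pool in mice 2 and 5 and below it in the other mice. The SDs of these 6 genes over the technical repeats were 0.02 to 0.13.

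Xlr4b, also among the genes of largest SD (1.53), went differently. It was highest in mouse 5, at 2.85, and at -1.06 in mouse 2. Mice 2 and 5 lay on different slides and were scanned on different days. Of 19 interferon-induced genes listed, 5 were higher and 1 lower, with list medians of 0.79 and 1.34 in mice 2 and 5 and of -0.42 to -0.05 in the others. The median over all mice was 0.06, and it was -0.03 without mouse 2 and -0.15 without mouse 5. The share called higher, 26.3%, was near that of all genes, 26.8%. Usp18 (0.63 to 2.29), Oas1a (0.13 to 1.57) and Ifit2 (0.20 to 1.45) were named from this list. Only called genes on the same side of the pool in every mouse could be named, so their agreement over the mice is not a result. Antigen presentation had 1 of 13 genes higher and none lower, with list medians of 0.22 and 1.12 in mice 2 and 5.

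**Figure D3:**
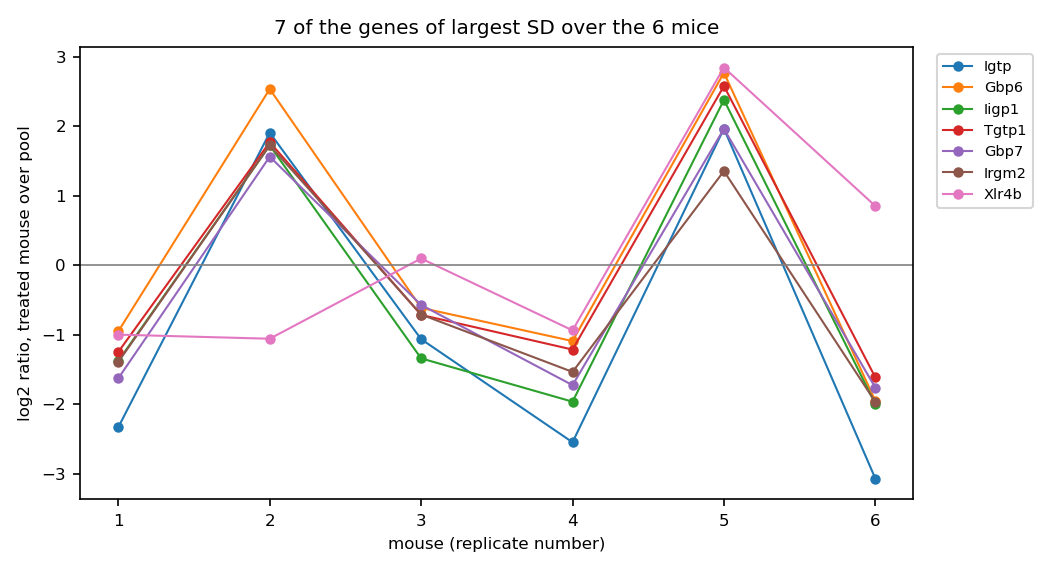
Log2 ratio of treated mouse over pool for 7 of the 8 genes of largest SD over the mice, by mouse (replicate number), for RSG at 28 µmol/kg in liver. The lines only join values of the same gene, since mice have no order. The interferon-induced GTPases lie above 1 in mice 2 and 5 and below 0 in mice 1, 3, 4 and 6.

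The lowest dose of RSG was set against the higher doses in the same fit, where the pool cancels. Between 28 and 84 µmol/kg limma called 0 of 26026 sequences, with 1126 (4.33%) at an unadjusted p under 0.05. The genes with the smallest p were Tmem163 (mean -2.01 at 28 and -0.89 at 84 µmol/kg), B930025P03Rik (-0.07 and 0.28), Stap1 (-1.07 and -2.0) and Lrrc26 (-0.84 and -0.02), each with an adjusted p of 0.85. The treated channel of Tmem163 was not above background at 28 µmol/kg. Between 28 and 280 µmol/kg 3 sequences were called, all lower at the lowest dose (0.0115%), and 3697 (14.2%) had an unadjusted p under 0.05. Eef2k, the kinase that slows translation, had ratios of -0.60 to -0.03 (median -0.22) at 28 µmol/kg and of 0.04 to 0.42 (0.27) at 280 µmol/kg. The difference was -0.52 (95% interval -0.69 to -0.34, adjusted p = 0.025). Enpp2, the secreted enzyme autotaxin, ran from -0.13 to 0.43 (median 0.20) and from 0.44 to 0.89 (0.71), with a difference of -0.51 (-0.70 to -0.32, adjusted p = 0.040). The third sequence has no gene symbol. For Eef2k and Enpp2, mice of both doses scanned on day 8 of scanning, 2 a dose, differed by -0.45 and -0.64. With scan day as a block none was called by limma, and 2081 had an unadjusted p under 0.05. Leaving out single mice gave 0 to 31 calls, the most without mouse 5 of 280 µmol/kg. A p that misses the threshold does not show that the doses act alike.

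RSG and the S compound were both given at 28 µmol/kg, and their difference was the only pair of compounds compared. Of 26026 sequences, 104 were higher and 122 lower with RSG, together 0.868%. Plin4, the droplet protein, ran from 2.56 to 3.92 (median 3.14) with RSG and from 0.76 to 2.05 (1.33) with S, a difference of 1.75 (95% interval 1.08 to 2.43, adjusted p = 0.0069). Slc24a3 ran from 3.62 to 4.33 and from 1.91 to 2.90, a difference of 1.67 (1.15 to 2.19, adjusted p = 0.00068). The genes named here were chosen by their called difference between these same mice, so a lack of overlap is not read as a result. The share of all sequences without overlap was not counted. The ubiquitin-like gene Ubd (difference 2.05), Ankrd22 (2.20), Cfap57 (2.23) and Otop1 (1.77) were also higher with RSG. The pool channel of Ankrd22 was not above background.

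In the other direction, Hao2 had medians of -4.0 with RSG and -1.29 with S, with 1 mouse given S at -4.41 among those given RSG, and a difference of -2.34 (95% interval -3.41 to -1.27, adjusted p = 0.023). Nr0b2, the bile acid induced repressor SHP, ran from -1.67 to -0.64 with RSG and from -0.76 to 0.59 with S, a difference of -1.06 (-1.54 to -0.58). Krt23 was above the pool with both compounds, with a difference of -1.08. Ell3 (-0.93), 0610008F07Rik (-0.85) and Tnfaip8l1 (-0.83) were lower with RSG. Cfd and Elovl7 had means of 6.59 and 5.27 with RSG and 5.24 and 3.70 with S, differences of 1.35 (0.82 to 1.88, adjusted p = 0.0085) and 1.56 (1.11 to 2.01, adjusted p = 0.00019). For Cidec the difference of 0.75 (0.30 to 1.21) was not called (adjusted p = 0.099), and for Acaa1b, Gtl2 and Rian none was called either. The 2 groups share no scan day, and compound and scan day cannot be told apart here: with scan day as a block, estimated through the other groups, the count of calls by limma was 0, against 2560 sequences at an unadjusted p below 0.05. The calls numbered 65 to 289 when 1 mouse was left out, the fewest without mouse 2 of RSG.

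**Figure D4:**
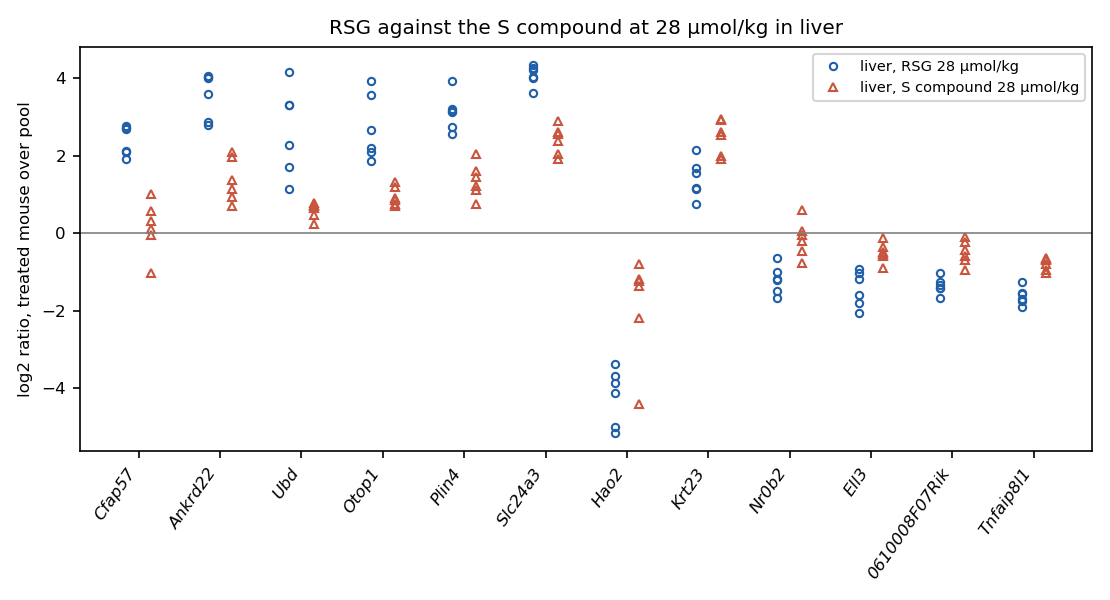
Log2 ratio of treated mouse over pool in liver for the 6 highest and 6 lowest genes called between RSG (circles) and the S compound (triangles) at 28 µmol/kg, 6 mice each. Hao2, Krt23 and Nr0b2 overlap between the compounds. The genes were chosen by their difference between these mice, so the separation of the others is not a result.

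In IAT the same dose was set against an untreated IAT pool, so liver minus IAT is a difference of 2 ratios whose pools do not cancel. Of 25531 sequences tested in both tissues, 4828 had a higher ratio in liver (18.9%) and 8237 a lower one (32.3%), together 51.2%. Of the called sequences, 37.0% were thus higher in liver, and 50.3% when each sample was centred on its median. Cfd, at 6.47 to 6.74 in liver, lay at -1.65 to 0.13 in IAT, a difference of 7.51 (95% interval 7.04 to 7.99, adjusted p = 1.4e-36). Elovl7 lay at -2.72 to 1.15 in IAT (difference 6.79) and Ifi27l2b at -3.73 to -2.55 (6.71). 5330417C22Rik (7.94) and Lrrc19 (6.55) had ratios below -4 in every IAT sample and above 0 in every liver, and so had the keratin Krt20, whose liver pool was not above background. Channels were checked against background gene by gene only on the liver arrays, so these IAT ratios may rest on dim channels. Gtl2 was lower in liver, with a difference of -3.15. Rian and Mirg were called lower in liver too, without a measured size, since their treated channel in liver was not above background. In IAT the ratios of Gtl2, Rian and Mirg lay between -0.16 and 0.28, 0.09 and 1.18, and 0.15 and 1.34. Sult2a8 had a difference of -2.71, with a mean of -0.03 in IAT. The muscle myosin Myh7 (-2.60) overlapped between the tissues, with 1 IAT sample at -3.91, and Myh1, not above background in treated liver, overlapped as well.

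**Figure D5:**
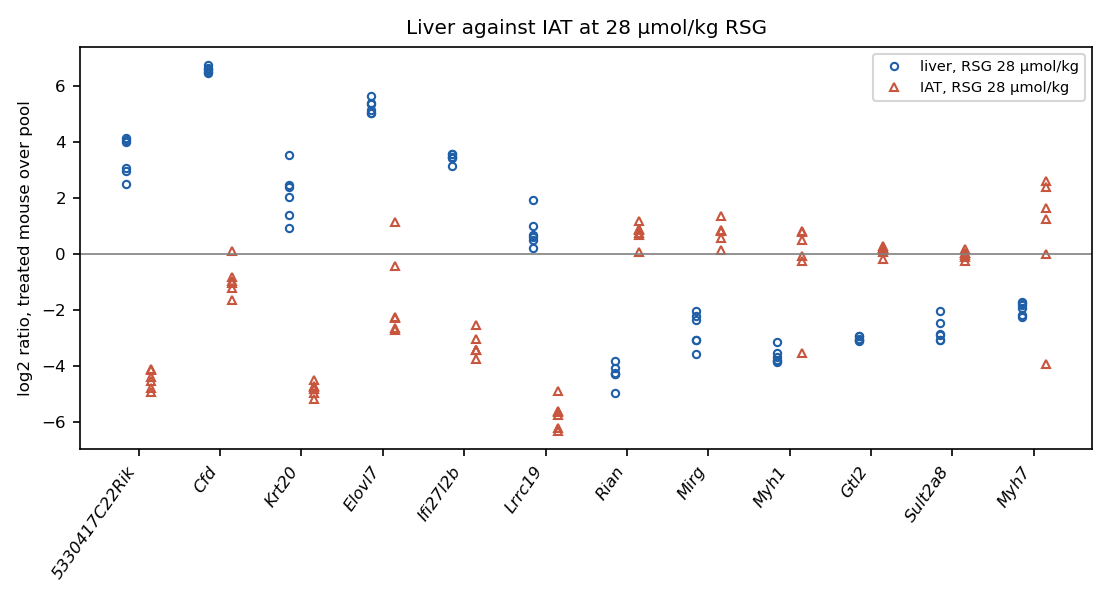
Log2 ratio of treated mouse over the pool of its own tissue at 28 µmol/kg RSG, in liver (circles) and IAT (triangles), 6 samples each, for the 6 genes with the highest and the 6 with the lowest difference called. Cfd lies between 6.47 and 6.74 in liver and between -1.65 and 0.13 in IAT, while the liver points of Rian, Mirg, Myh1 and Krt20 rest on 1 channel not above background.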

How the data were processed

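RNA of each mouse and of the pool was labelled with Cy3 and Cy5 and hybridised as a dye-swap pair. Scanned arrays were processed by the authors in Agilent Feature Extraction 9.5, which subtracted background and normalized the dyes, and the scanner files hold the deposited log10 ratio of Cy5 over Cy3 per probe, on an array design placed on mm8. The deposited error of each ratio, a score, served as a weight in an alternative. The deposited intensity of each channel and its flags gave the filter, the bounds and the summed marker levels. A deposited table of log10 ratios, combined over each pair by the authors, correlated at 0.990 to 0.995 with the values computed here and served as another alternative.

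Ratios were turned to treated over pool, put on the log2 scale and averaged over the pair, so each mouse is 1 replicate. The labels do not say more of how the samples of a group were obtained, so p-values measure the spread between these samples. Probes were tested if, in any group, one of the channels passed the background flag on 50% or more of its arrays. limma 3.58.1 (R 4.3.3) was fitted to the 36 treated livers with 6 group means, each tested against 0 or against another group, with Benjamini-Hochberg adjustment over all probes and calls at an adjusted p under 0.05. Tables and plots were made with Python 3.11.15, pandas 2.3.3 and matplotlib 3.10.9. The number of arrays limits the precision. Data simulated for the comparison with the pool held 5000 genes, with 50 changed at each of 0.3, 0.6, 1 and 2 on the log2 scale. Of these changes 68%, 90%, 100% and 100% were found, with 7 false calls. The real comparison called a larger share, 58.5% of its sequences, so these figures may not carry over to it.

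Of 41174 probes, 26835 carried a RefSeq accession and 23483 of these matched the reference gene table. The rest kept the name in the file. Each gene was represented by its brightest probe. A gene not well above background on any array of one side is given as a bound, the mean of the measured side against the higher of the dim probe's own signal and the lowest signal among probes well above background, after loess and Aquantile normalization.

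Genes were named by rule. These were the 15 highest and 15 lowest called genes, up to 6 called genes per contrast and direction, and the 8 genes of largest SD. From each list came the 4 genes of smallest p and the one that goes against its majority. The highest, lowest and list genes also had to be called and to have 1 sign in all mice. Agreement of these genes over the mice therefore follows from the rule. The mice, gene lists and tests were chosen with earlier results of these data known. Alternatives changed the background correction, centring, filter, dye orientation, blocks, weights, source of the ratios and samples used. Some genes that this rule names are not reported here.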

Additional observations from a re-analysis of the deposited data

Results flagged for a closer look

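In 13 of the genes named, 1 of the 6 mice stood apart from the others by more than Dixon's critical value. Chance gives this in about 1 in 20 groups, so among the many genes named several would stand apart by chance. The count of 13 is therefore not read as a result. Mouse 1 was apart for Ifi27l2b (3.14), Slco1a1 (-1.79), Pecr (-0.53) and Ghr (-0.18), in each case nearest to the pool. Mouse 3 was apart for Insig2 (1.16) and Mcm4 (0.27), mouse 4 for Igfbp4 (-1.10), Lrat (1.40) and Gapdh (0.38), and mouse 5 for Pdia4 (-0.19). Mouse 4 was also apart for Btbd9 (-3.06) and mouse 1 for Hpgd (2.75) and Nfia (2.58), genes chosen after their values were seen. For Hpgd and Nfia only 1 array of mouse 1 lay apart, and its dye swap gave -0.34 and -0.26.

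The response at 28 µmol/kg RSG differed between liver and IAT for 12 genes named by rule, tested in 1 limma fit of both tissues. The liver ratio was higher on the log2 scale for 5330417C22Rik (7.94), Cfd (7.51), Elovl7 (6.79), Ifi27l2b (6.71) and Lrrc19 (6.55), and the fit gave 6.94 for Krt20, whose liver pool was not above background. It was lower for Gtl2 (-3.15), Sult2a8 (-2.71) and Myh7 (-2.60). The fit also gave lower values for Rian (-5.02), Mirg (-3.48) and Myh1 (-3.35), but their treated channel in liver was not above background, so these sizes and their order are not measured. Each tissue was set against its own pool, and the IAT channels of these genes were not checked one by one against background.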

How the results depend on the processing

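Against the pool, the counts were 5285 higher and 7335 lower with scan day as a block, 5958 and 7089 after normexp and loess, and 7497 and 7635 with each sample centred on its median. They were 5961 to 6177 and 8164 to 8406 with 1 mouse left out. At the study's thresholds (unadjusted p under 0.001 and 1.3-fold) 5079 sequences passed. Between 28 and 280 µmol/kg, 1 sequence was called without the filter, 1 after normexp and loess, 7 with the stricter filter, and by limma 0 on Cy5 arrays alone, 0 by scan day and 0 by slide as a block (3320, 2081 and 3075 had an unadjusted p under 0.05), and 0 to 31 when a mouse was left out. Between 28 and 84 µmol/kg, 1 was called on Cy3 arrays alone and 1 with scan day as a block. Between RSG and S, 96 were called after normexp and loess, 116 on Cy5 arrays alone, 99 with the slide and 0 with scan day as a block, and 65 to 289 with 1 mouse left out (97 without mouse 3 of S). Replicate numbers are not stated to pair the samples, and same-numbered livers correlated at -0.13 to 0.493. With the replicate number as a block there were 6840 higher and 9040 lower against the pool, 17 calls between 28 and 280 µmol/kg, 316 between RSG and S, and 5031 and 8744 between liver and IAT. Liver and IAT of the same number correlated at 0.06 to 0.156, and every liver correlated best with its own number, a hint from the data and not the design. Median log2 ratios of several lists near 0 changed sign: mitochondrial isoforms 0.36 with the stricter filter and 0.01 on Cy3 arrays alone, cholesterol synthesis -0.01 and interferon-induced genes -0.01 with the technical repeats averaged into mouse 1, interferon-induced genes -0.03 without mouse 2 and -0.15 without mouse 5, endoplasmic reticulum stress 0.01 without mouse 4, neutrophil markers -0.03 without mouse 5, genes higher in male liver 0.10 on Cy3 arrays alone, nuclear receptors 0.01 when centred, and exocrine pancreas markers 0.03 in the deposited table, 0.03 after normexp and loess, 0.13 on Cy5 arrays alone, 0.02 with the technical repeats averaged into mouse 1, 0.03 when weighted and, with a mouse left out, -0.10 to 0.02. Mean ratios changed sign in genes where 1 array or mouse lay apart: Hpgd was at -0.33 in the deposited table, -0.37 on Cy3 arrays alone, -0.36 with the technical repeats, -0.33 when weighted and -0.46 to 0.20 with a mouse left out, Nfia at -0.15 on Cy3 arrays alone, -0.02 with the technical repeats and -0.07 to 0.51 with a mouse left out, and Btbd9 at -0.28 to 0.43 with a mouse left out. The cause of these changes was not tested. Probes near background, where a ratio rests on a dim channel, limit the lowest genes.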

Other observations

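In a few genes a single mouse or array lay far from the rest, and those given here were chosen after their values were seen. Btbd9 had log2 ratios of 0.39 to 0.48 in 5 mice and -3.06 in mouse 4. Both arrays of mouse 4 had a treated intensity of 346 and 347, against 3043 to 3995 on the other arrays, while the pool read 2314 to 3005. Hpgd was at 2.75 and Nfia at 2.58 in mouse 1. In the pool channel, 1 array of mouse 1 read 104 for Hpgd against at least 7023 on the others, and 85 for Nfia against at least 2620. That array had log2 ratios of 5.84 for Hpgd and 5.41 for Nfia. Its dye swap had -0.34 and -0.26, among the values of the other mice.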
